A study of Mus musculus with 6 samples.

Results

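The unfolded protein response and the integrated stress response were followed through 32 named genes in whole kidneys of mice with a conditional knockout of Nampt, the rate-limiting enzyme of NAD salvage. The genes were taken from a list of names and matched to the array through the accession of each probe, and the list was drawn up with earlier results of these data known. They are 32 of the 21154 genes named on the array. By role they comprise 16 targets of Xbp1 and Atf6, 12 targets of Atf4, and 4 sensors or transcription factors. Of the 32, 31 were among the 15309 genes tested, and all 31 were well above background on all 6 arrays.

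The kidneys came from 3 mice labelled as knockouts and 3 mice labelled as controls, all male and of strain C57BL/6J. No drug, diet or diabetes is named for either group in the labels. Only the series title ties the knockout to the proximal tubule of the nephron, whereas the RNA is that of whole kidneys, so cells outside the proximal tubule contribute to every value. The promoter that drives the deletion, the deleted exons and the ages of the mice are not given in the sources used here. RNA was hybridised to single-colour Agilent microarrays, 1 per animal, and each number in the labels is a separate mouse. Values are log2 signals relative to the 75th percentile of each array, so that 0 is a bright probe's level and 1 unit is a doubling. The level of 1 probe cannot be set against that of another. In whole tissue, fewer cells of a type and less RNA per cell cannot be told apart.

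Proteins that enter the secretory pathway fold in the endoplasmic reticulum (ER). When unfolded chains accumulate there, the sensor Ire1 (gene Ern1) splices Xbp1 mRNA, the sensor Atf6 is cut to release a transcription factor, and the products of both raise chaperones and degradation factors. The kinase Perk, also a sensor of unfolded chains in the ER, phosphorylates eIF2. Its relatives, which sense other stresses such as lack of amino acids, do the same. This slows translation and lets Atf4 be made, which raises genes of amino acid supply and redox balance. The proximal tubule reabsorbs filtered protein and carries large amounts of membrane transporters, and both responses are known from injured kidney.

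The labels were first checked on Nampt itself. Its level was 1.80, 1.50 and 1.53 in knockouts 1, 2 and 3, against 2.78, 2.59 and 2.65 in controls 1, 2 and 3. It fell by 1.06 ± 0.10 (SE) on the log2 scale to 48.0% of the control level (limma adjusted p = 0.0431), and the groups did not overlap. Under 18 alternatives the difference lay between −1.15 and −0.87, and it passed the test in 9 of them. It did not pass with quantile normalisation, with either treatment of slide row, with the replicate number as a block, or without any 1 array other than that of knockout 1 (adjusted p up to 0.180). Whether the Nampt probe lies in the deleted exons is unknown. Spots well above background made up 61.5% to 63.3% on the controls and knockout 1. They made up 58.1% and 57.3% on knockouts 2 and 3, the arrays of the second slide row. Arrays correlated at r of 0.994 to 0.997 across 30025 probes. A single slide carried all arrays. Row 1 of that slide held the controls and knockout 1, and row 2 held knockouts 2 and 3. The 7 proximal tubule markers, among them the phosphate transporter Slc34a1 and the endocytic receptor Lrp2, differed by −0.08 to 0.04 between knockout and control kidneys, and none passed the test.

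None of the 31 members tested passed limma at an adjusted p of 0.05, against 0.17% of all genes tested. At an unadjusted p of 0.05, 6 members were lower in knockouts, where 6.13% of all genes were, and 2 were higher, where 6.69% were. The 6 were Xbp1, Manf, Creld2, Hspa5, Dnajb9 and Sdf2l1, and the 2 were Atf3 and Asns. The groups of 9 members did not overlap with the knockouts lower, against 10.5% of all genes, and those of 2 members did not overlap with the knockouts higher, against 9.04%. The values below are therefore given as differences between these animals, with their errors.

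Among the sensors and factors, Xbp1 stood apart from the others. Xbp1 encodes the transcription factor that Ire1 activates by splicing, and its mRNA is itself a known target of Atf6. Its level was 5.59, 5.44 and 5.45 in knockouts 1, 2 and 3, against 6.11, 5.93 and 6.02 in controls 1, 2 and 3. Each knockout was below each control, and knockout 1 was the highest of the knockouts. The difference was −0.52 ± 0.07 (SE), or 69.5% of control, with a limma adjusted p of 0.0877. Over 18 alternatives the difference lay between −0.57 and −0.43, and it passed the limma test in only 2 of them. The adjusted p was 0.0416 with array weights and 0.0261 with a trended and robust variance. Those fits called 116 and 57 of all genes, against 26 in the main fit. Whether the probe separates spliced from unspliced Xbp1 was not analysed here.

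The other factors showed no such gap. Ern1, which encodes Ire1, was at −0.84, −0.96 and −0.96 in knockouts and at −0.85, −0.97 and −0.89 in controls, a difference of −0.02 ± 0.06. Atf6 differed by 0.01 ± 0.04, and its 6 values lay between −0.55 and −0.50. Atf4 was at 5.78, 5.76 and 5.80 in knockouts and at 5.97, 5.75 and 5.80 in controls, a difference of −0.06 ± 0.07, and a second Atf4 probe differed by −0.10. Atf4 is controlled largely through translation, which an mRNA array does not measure. The groups overlapped for Ern1, Atf6 and Atf4.

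**Figure D1:**
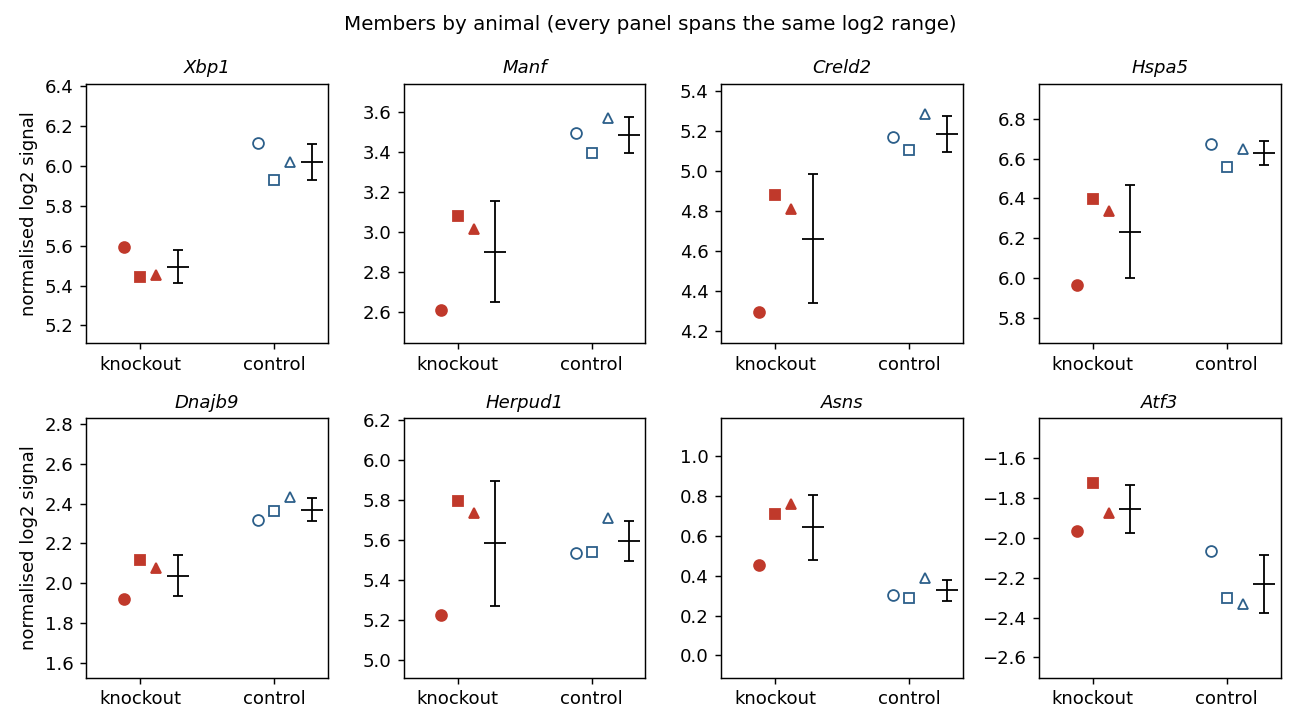
Normalised log2 signal of 8 members in each animal, with filled red marks for the 3 knockouts and open blue marks for the 3 controls. Circles, squares and triangles mark replicates 1, 2 and 3, and black bars give the mean ± SD. Knockouts lie below controls for Xbp1, Manf, Creld2, Hspa5 and Dnajb9, above controls for Asns and Atf3, and on both sides of them for Herpud1.

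The Xbp1 and Atf6 targets had small differences that ran the same way. All 16 had a log2 difference below 0, as did 52.9% of all genes tested. Herpud1 turned to a value above 0 under quantile normalisation, with and without normexp, and Herpud1, Pdia6 and Canx did so with array weights. The median difference was −0.15 for the list and −0.01 for all genes. The groups did not overlap, with the knockouts lower, for 8 of the 16, against 10.5% of all genes tested. The 8 were Manf, Creld2, Hspa5, Dnajb9, Sdf2l1, Hsp90b1, Ero1lb and Dnajc3.

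The 2 genes of the list with the largest differences are not classical chaperones. Manf encodes a small protein that is held in the ER by Hspa5 and secreted under ER stress. It was at 2.61, 3.08 and 3.01 in knockouts 1, 2 and 3, against 3.50, 3.39 and 3.57 in controls 1, 2 and 3. The difference was −0.59 ± 0.13 (SE), or 66.6% of control, with an adjusted p of 0.207. Creld2, an ER-resident protein with disulphide isomerase activity, was at 4.29, 4.88 and 4.81 in knockouts and at 5.17, 5.11 and 5.29 in controls. Its difference was −0.53 ± 0.16, or 69.4% of control, with an adjusted p of 0.291. For both genes knockout 1 was far below knockouts 2 and 3, which were in turn below every control.

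Hspa5 encodes BiP, the Hsp70 chaperone of the ER, whose binding keeps the sensors inactive. It was at 5.97, 6.40 and 6.34 in knockouts, against 6.67, 6.56 and 6.65 in controls, a difference of −0.39 ± 0.12, or 76.1% of control (adjusted p = 0.290). The other chaperones had smaller differences or overlapping groups. Hyou1, the large Hsp70 relative that exchanges nucleotide on BiP, was at −2.19, −1.55 and −1.74 in knockouts and at −1.46, −1.50 and −1.58 in controls, so knockout 2 lay among the controls. Its difference was −0.31 ± 0.16. Hsp90b1, which encodes the ER Hsp90 protein Grp94, differed by −0.18 ± 0.09 without overlap. Calr and Canx, the lectin chaperones of glycoproteins, differed by −0.11 ± 0.09 and −0.04 ± 0.06, with overlap.

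Among the co-chaperones, Dnajb9, an ER J protein that helps degrade misfolded proteins and a known target of Xbp1, had the smallest p of the 16. It was at 1.92, 2.12 and 2.08 in knockouts, against 2.32, 2.36 and 2.43 in controls, a difference of −0.33 ± 0.07 (adjusted p = 0.187). A second, dimmer Dnajb9 probe differed by −0.41 ± 0.05 and there knockout 1 was the highest knockout, at −1.83, against −1.86 and −1.92 in the other knockouts and −1.42 to −1.50 in controls. Dnajb9 lies on chromosome 12, as do Nampt and Pdia6, another of the targets, whose groups overlapped. Sdf2l1, which keeps BiP cycling with its J proteins, was at 0.65, 1.09 and 0.98 in knockouts and at 1.17, 1.17 and 1.29 in controls, a difference of −0.30 ± 0.12. Dnajb11 differed by −0.14 ± 0.10 and Dnajc3, known as the Perk inhibitor p58IPK, by −0.10 ± 0.05.

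The oxidative folding enzymes and a degradation factor complete the list. Ero1lb, the oxidase that reoxidises protein disulphide isomerases, differed by −0.16 ± 0.08 without overlap. The isomerases Pdia4, Pdia3 and Pdia6 differed by −0.11 ± 0.10, −0.07 ± 0.07 and −0.07 ± 0.12, all with overlap, and a second Pdia6 probe differed by 0.04. Herpud1, a part of the ER-associated degradation complex, was at 5.22, 5.79 and 5.73 in knockouts and at 5.54, 5.54 and 5.71 in controls. For Herpud1 knockout 1 was below all controls and knockouts 2 and 3 were above all of them, and the difference was −0.01 ± 0.16.

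Knockout 1 was the lowest of the 6 arrays for all 16 Xbp1 and Atf6 targets, against 20.8% of all genes tested. This count used the brightest probe of each gene, and on the second Dnajb9 probe knockout 1 was the highest knockout. The count was 16 of 16 also under scaling by the median and under quantile normalisation, where the shares of all genes were 19.5% and 18.1%. The median of the 16 targets relative to the control mean was −0.35, −0.06 and −0.09 in knockouts 1, 2 and 3, against −0.01, −0.05 and 0.06 in controls 1, 2 and 3. Knockouts 2 and 3 were thus close to control 2 in this summary. Without knockout 1 the median difference was −0.08, with 14 of 16 genes below 0, and Herpud1 and Pdia6 above it. The groups still did not overlap, with knockouts 2 and 3 lower, for 8 of the 16, against 16.9% of all genes.

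Slide row was taken as a block because knockouts 2 and 3 lie in a row with no control. That fit compares knockout 1 with the 3 controls of its row, so for knockouts 2 and 3 row and genotype cannot be told apart. Its p-values test a single knockout animal, whose spread is assumed to be that within the controls and within the pair of the other row. The median of the Xbp1 and Atf6 targets was then −0.35, and 12 of the 16 were lower at an unadjusted p of 0.05, against 5.22% of all genes. None passed after adjustment, against 0.105% of all genes, and the lowest adjusted p was 0.0733, for Manf and Creld2. Their differences were −0.88 ± 0.09 and −0.90 ± 0.09. Hspa5 differed by −0.66 ± 0.08, Hyou1 by −0.67 ± 0.10 and Sdf2l1 by −0.56 ± 0.09, all more than 1.5 times the value over all 6 arrays. Xbp1, in contrast, differed by −0.43 ± 0.09 with the row as a block, and Nampt by −0.87 ± 0.09 with an adjusted p of 0.0733.

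**Figure D2:**
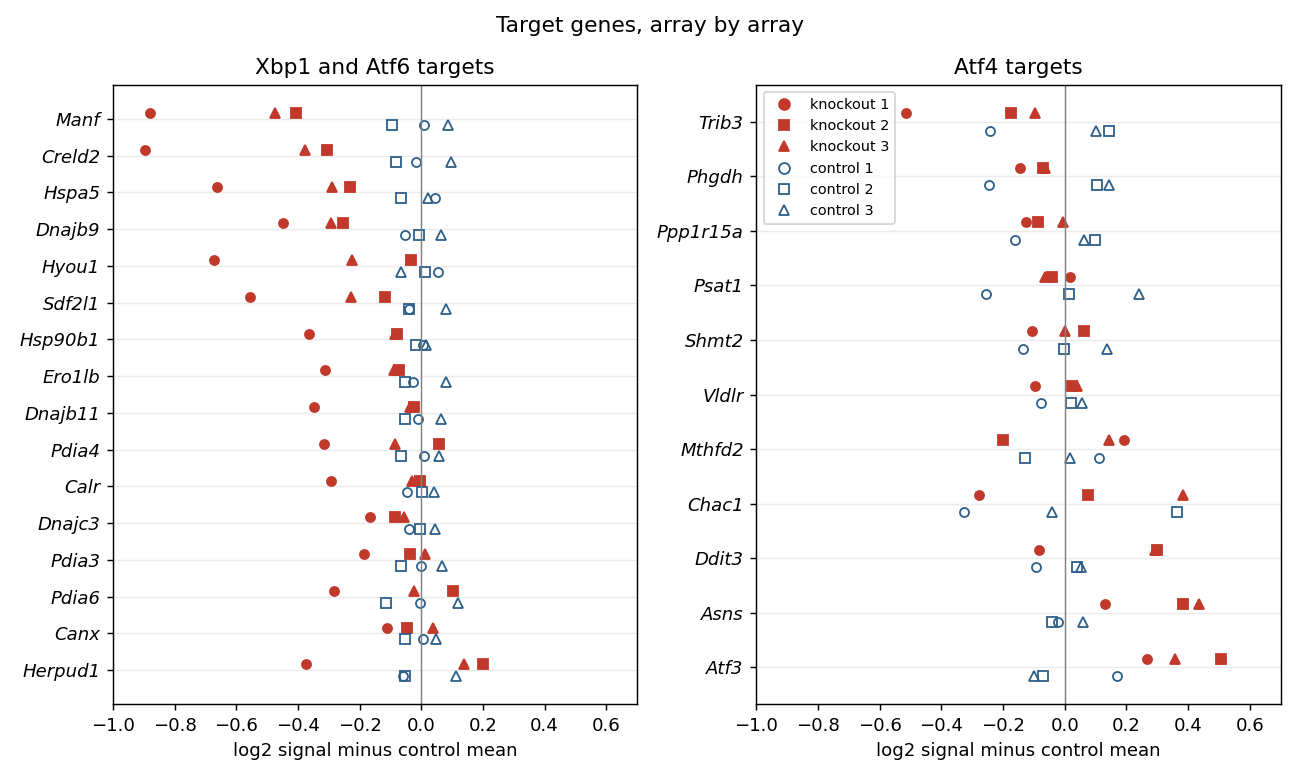
Log2 signal of each target gene on each array minus the control mean of that gene, with filled red marks for knockouts and open blue marks for controls. The left panel holds the 16 Xbp1 and Atf6 targets, where the red circle of knockout 1 is the leftmost mark in every line. The right panel holds the 11 Atf4 targets tested, where knockout 1 is the leftmost mark for Trib3 and Vldlr.

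The promoters of these genes are shown because a known ER stress response element (ERSE) marks many of them. Promoter windows of 250 bases before to 50 after each gene start were taken from RefSeq, assembly GRCm38.p6, and 29 of the 32 members were matched. The windows of Hyou1, Manf and Atf6 were not analysed here. The ERSE, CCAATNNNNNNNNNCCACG on either strand, was found in 8 of the 14 Xbp1 and Atf6 targets with a window and in none of the 12 Atf4 targets, against 0.137% of 27025 genes. The 8 were Hspa5, Creld2, Hsp90b1, Calr, Canx, Dnajc3, Ero1lb and Pdia6. The shorter ERSE-II, ATTGGNCCACG, was found in Dnajb11 and Herpud1, against 0.0444% of genes, and the core UPRE, TGACGTGG, in no member, against 0.714% of genes. Capitals mark the match in the stretches shown, which come from 3 ERSE genes with non-overlapping groups and from Herpud1, whose window holds an ERSE-II (the later capitals) and, before it, an element of the Atf4 type described further on.
Hspa5 (chr2:34772010-34772058, plus strand): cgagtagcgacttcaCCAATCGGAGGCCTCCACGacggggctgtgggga
Creld2 (chr15:88819505-88819553, plus strand): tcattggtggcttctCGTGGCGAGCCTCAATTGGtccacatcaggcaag
Dnajc3 (chr14:118937812-118937860, plus strand): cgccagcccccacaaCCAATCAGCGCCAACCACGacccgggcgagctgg
Herpud1 (chr8:94386302-94386402, plus strand): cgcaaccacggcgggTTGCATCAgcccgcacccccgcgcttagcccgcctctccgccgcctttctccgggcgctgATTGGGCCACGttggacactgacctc

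In Creld2 the element reads in the opposite direction to the gene. The 8 targets with an ERSE had differences of −0.53 to −0.04 with a median of −0.13. The 6 with a window but no ERSE, among them Dnajb11 and Herpud1 with an ERSE-II, had differences of −0.33 to −0.01 with a median of −0.12. The ranges overlap, and the match is a description of these letters only.

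The Atf4 targets did not share a direction. Of the 11 tested, 5 had a log2 difference above 0 and 6 below it, with a median of −0.01, the value of all genes. Quantile normalisation turned this to 6 above and 5 below, and leaving out each array gave 3 to 8 below. Knockout 1 was the lowest of the 6 arrays for 2 of the 11, Trib3 and Vldlr.

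Atf3 and Asns were the members with the groups apart and the knockouts higher. Atf3 encodes a stress-induced transcription factor that is also raised by other signals. It was at −1.96, −1.72 and −1.87 in knockouts 1, 2 and 3, against −2.06, −2.30 and −2.33 in controls 1, 2 and 3, a difference of 0.38 ± 0.10 (SE; adjusted p = 0.240). Asns, asparagine synthetase, was at 0.46, 0.71 and 0.76 in knockouts and at 0.30, 0.29 and 0.39 in controls, a difference of 0.32 ± 0.09 (adjusted p = 0.269). In both genes knockout 1 was the lowest knockout and the nearest to the controls. With slide row as a block the differences were 0.27 ± 0.13 for Atf3 and 0.13 ± 0.08 for Asns.

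The remaining regulators among the targets overlapped between groups. Ddit3, which encodes the factor Chop, was at 0.05, 0.43 and 0.42 in knockouts and at 0.04, 0.17 and 0.19 in controls. Knockouts 2 and 3 were above every control while knockout 1 was level with control 1, and the difference was 0.17 ± 0.12. Trib3, a pseudokinase that dampens Atf4 and Chop, was at −1.32, −0.98 and −0.90 in knockouts and at −1.05, −0.66 and −0.70 in controls, a difference of −0.26 ± 0.15. Ppp1r15a, the phosphatase subunit that reverses eIF2 phosphorylation, differed by −0.07 ± 0.08. Chac1, a glutathione-degrading enzyme, differed by 0.06 ± 0.23, the widest error among the members tested.

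The serine and folate genes stayed within the control range or close to it. Phgdh and Psat1, which make serine, differed by −0.09 ± 0.11 and −0.03 ± 0.13, and second probes for both gave −0.08 and −0.02. For Psat1 the knockouts lay between 3.08 and 3.16 and the controls between 2.89 and 3.38. Shmt2 and Mthfd2, mitochondrial enzymes of folate metabolism, differed by −0.01 ± 0.09 and 0.05 ± 0.12. Vldlr, a lipoprotein receptor, differed by −0.01 ± 0.06.

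Slc7a11, the cystine importer xCT, was the member left out of the test, since its probe was not well above background on all arrays of either group. It was well above background on the arrays of knockouts 2 and 3, at −2.76 and −3.63, and not on that of knockout 1, at −7.42. It was not well above background in any control, at −7.61, −7.69 and −7.53. Values that are not well above background are bounds and have no order, so no fold is given.

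The element known to bind Atf4 with C/EBP partners, TGATGNAA on either strand, was found in 6 of the 12 Atf4 targets, namely Asns, Atf3, Chac1, Slc7a11, Trib3 and Vldlr, against 4.51% of genes. Among the Xbp1 and Atf6 targets it was found in Herpud1 alone. Shown are the stretches of the 2 targets with non-overlapping groups and of Slc7a11, which holds a pair of matches, from the same RefSeq windows and with the match in capitals and each sequence read along its gene.
Asns (chr6:7693210-7693247, minus strand): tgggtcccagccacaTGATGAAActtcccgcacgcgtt
Atf3 (chr1:191183421-191183458, minus strand): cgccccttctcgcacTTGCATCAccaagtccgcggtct
Slc7a11 (chr3:50443638-50443694, minus strand): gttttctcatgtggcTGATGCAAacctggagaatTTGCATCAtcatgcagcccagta

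The 5 tested targets with this element had differences of −0.26 to 0.38 with a median of 0.06, and the 6 without it had differences of −0.09 to 0.17 with a median of −0.02. Trib3 and Atf3, at the ends of the range, both hold it.

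**Figure D3:**
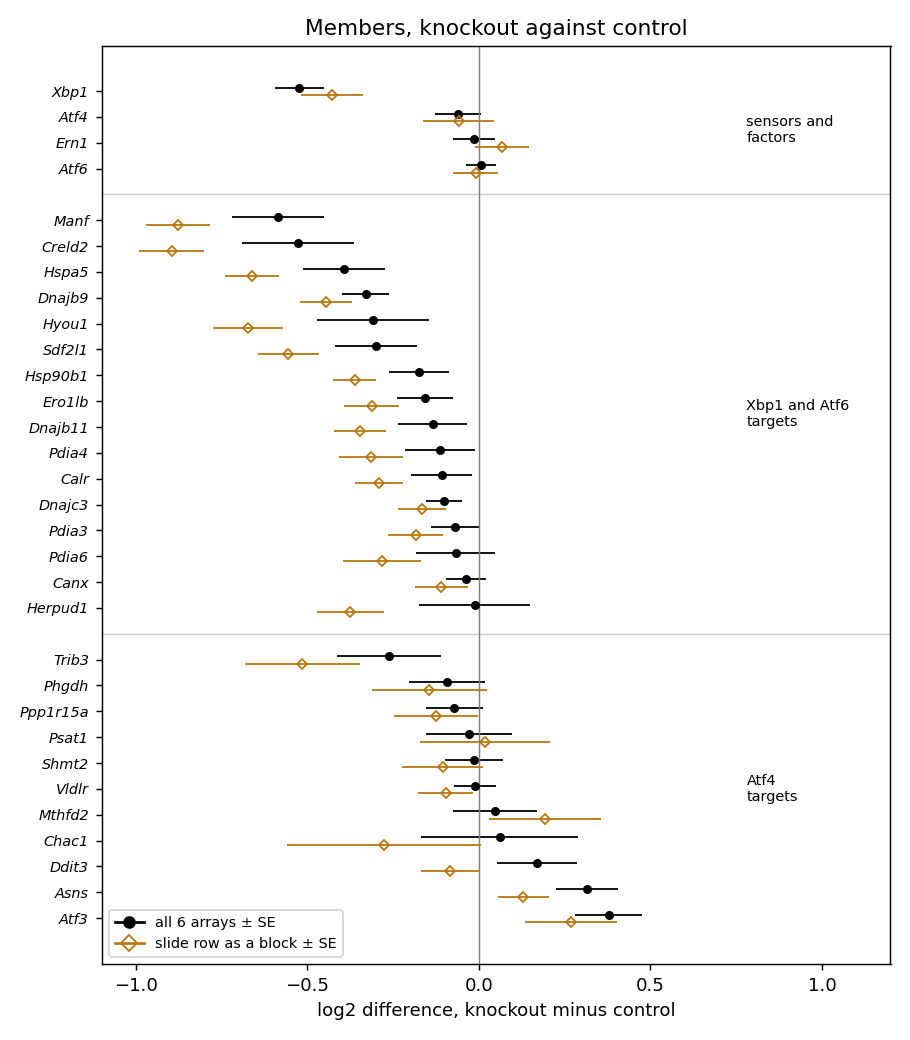
Log2 difference, knockout minus control, of the 31 members tested. Black dots with bars are limma estimates ± SE over all 6 arrays, and open diamonds are estimates ± SE with slide row as a block. The diamonds of 16 of the 16 Xbp1 and Atf6 targets lie further below 0 than the dots, and the diamond of Xbp1 lies nearer to 0 than its dot.

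Both target lists were then set against each other on each array. The median of the Xbp1 and Atf6 targets minus the median of the Atf4 targets was −0.26, −0.08 and −0.12 in knockouts 1, 2 and 3, against 0.13, −0.07 and 0.003 in controls 1, 2 and 3. Every knockout was below every control, though knockout 2 and control 2 were 0.009 apart. The mean was −0.15 ± 0.09 in knockouts and 0.02 ± 0.10 in controls (SD, n = 3 each). The Atf4 target median itself was −0.10, 0.02 and 0.04 in knockouts, against −0.13, 0.02 and 0.06 in controls, so every knockout lay within the range of the controls. No p is given for these scores, since the genes were chosen with results of these animals known.

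**Figure D4:**
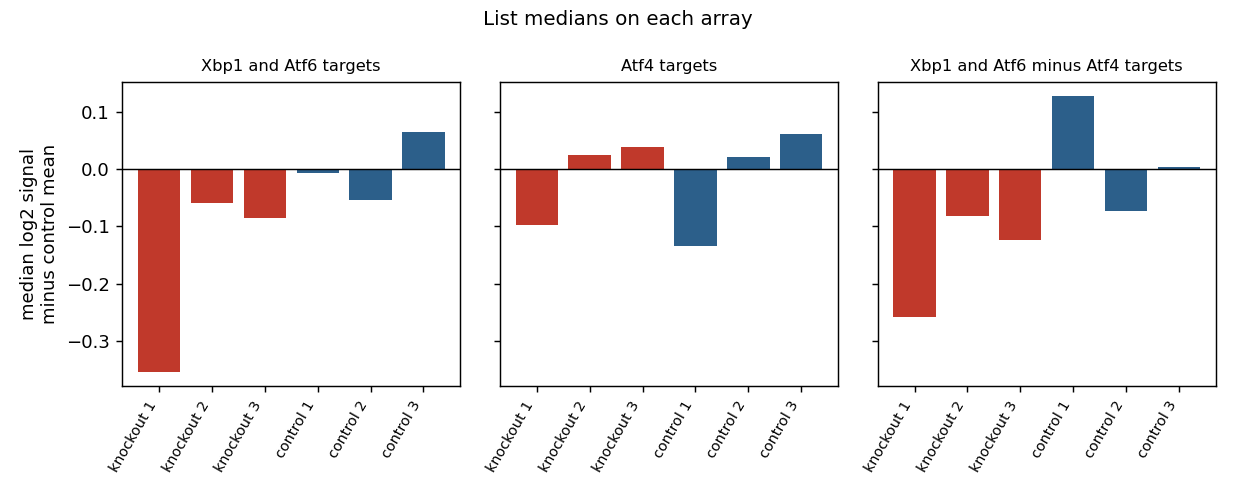
Median log2 signal minus control mean on each array, with knockouts in red and controls in blue, for the Xbp1 and Atf6 targets, the Atf4 targets, and the difference of these medians. Knockout 1 has the lowest bar for the Xbp1 and Atf6 targets, at −0.35, and control 1 the lowest for the Atf4 targets, at −0.13.

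Other genes of the same pathways were taken from lists of 116 names, picked by function. None of the 114 tested passed the test, and at an unadjusted p of 0.05 there were 5 lower and 5 higher, or 4.39% each way, below the shares of all genes (6.13% and 6.69%). The 40 genes of ER folding, translocation and degradation had a median of −0.03, with 30 of 40 below 0 (against 52.9% of all genes), and knockout 1 was the lowest array for 30 of them (against 20.8% of all genes). Of these, Derl3, a Derlin of ER-associated degradation, was at −1.58, −1.60 and −1.46 in knockouts, against −1.06, −1.19 and −1.01 in controls, a difference of −0.46 ± 0.07 (adjusted p = 0.105). Syvn1, the ubiquitin ligase Hrd1 of that pathway, was at 4.58, 4.80 and 4.88 in knockouts and at 5.09, 5.09 and 5.17 in controls, a difference of −0.36 ± 0.09 (adjusted p = 0.219). Txndc11, an ER thioredoxin-domain protein, differed by −0.25 ± 0.06 (adjusted p = 0.205). For these 3 genes the groups did not overlap. In the list of 40 this held for 6 genes with the knockouts lower, against 10.5% of all genes. It held for 1 gene with the knockouts higher, against 9.04%.

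Of 18 further sensors, regulators and eIF2 kinases, 13 were below 0 (against 52.9% of all genes). For 6 of the 18, knockout 1 was the lowest array (against 20.8% of all genes). The 3 genes with the smallest p were above 0. Tnfrsf10b, a death receptor raised by Chop, differed by 0.28 ± 0.05 (adjusted p = 0.138), and Bbc3, the apoptosis inducer Puma, by 0.26 ± 0.05 (adjusted p = 0.188). Both are also targets of p53. Eif2ak4, the amino acid sensor Gcn2, differed by 0.15 ± 0.06. Among 26 other Atf4 and stress response targets tested, 14 were above 0 and 12 below it, with a median of 0.02. For 3 of the 26, knockout 1 was the lowest array. Ddit4, an inhibitor of mTORC1, was at 4.013, 4.289 and 4.434 in knockouts, against 4.005, 3.672 and 3.559 in controls, a difference of 0.50 ± 0.15 (adjusted p = 0.290). Stc2, a secreted glycoprotein, differed by 0.26 ± 0.07, and Slc7a3, a cationic amino acid transporter, by 0.74 ± 0.32, of which knockout 3 carried most, with differences of 0.48, 0.30 and 1.46 in knockouts 1, 2 and 3 and a value of 0.39 without knockout 3.

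Cytosolic aminoacyl-tRNA synthetases, many of which Atf4 is known to raise, had a median of −0.05. Of the 19, 15 were below 0 (against 52.9% of all genes), and knockout 1 was the lowest array for 10 (against 20.8%). Farsb, Iars and Yars had the smallest p and differed by −0.14 ± 0.06, −0.15 ± 0.07 and −0.21 ± 0.10. With slide row as a block, which sets knockout 1 alone against the controls, Hars was at −1.04 ± 0.08 (adjusted p = 0.0440). Hars was at 0.30, 1.30 and 1.18 in knockouts 1, 2 and 3, against 1.30, 1.36 and 1.36 in controls 1, 2 and 3, so the gap is that of knockout 1. For Kars knockout 1 stood apart upwards, at 3.95, against 3.40 and 3.33 in knockouts 2 and 3 and 3.34 to 3.48 in controls. Of 11 genes of the mitochondrial unfolded protein response, 9 were below 0 (against 52.9% of all genes), with a median of −0.03. For 4 of the 11, knockout 1 was the lowest array (against 20.8% of all genes). Hspe1, the mitochondrial Hsp10 chaperone, was at 6.06, 6.69 and 6.58 in knockouts and at 6.67, 6.64 and 6.81 in controls, again with knockout 1 apart. Clpx and Timm17a, the other two of smallest p, differed by 0.12 ± 0.06 and −0.09 ± 0.06.

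**Figure D5:**
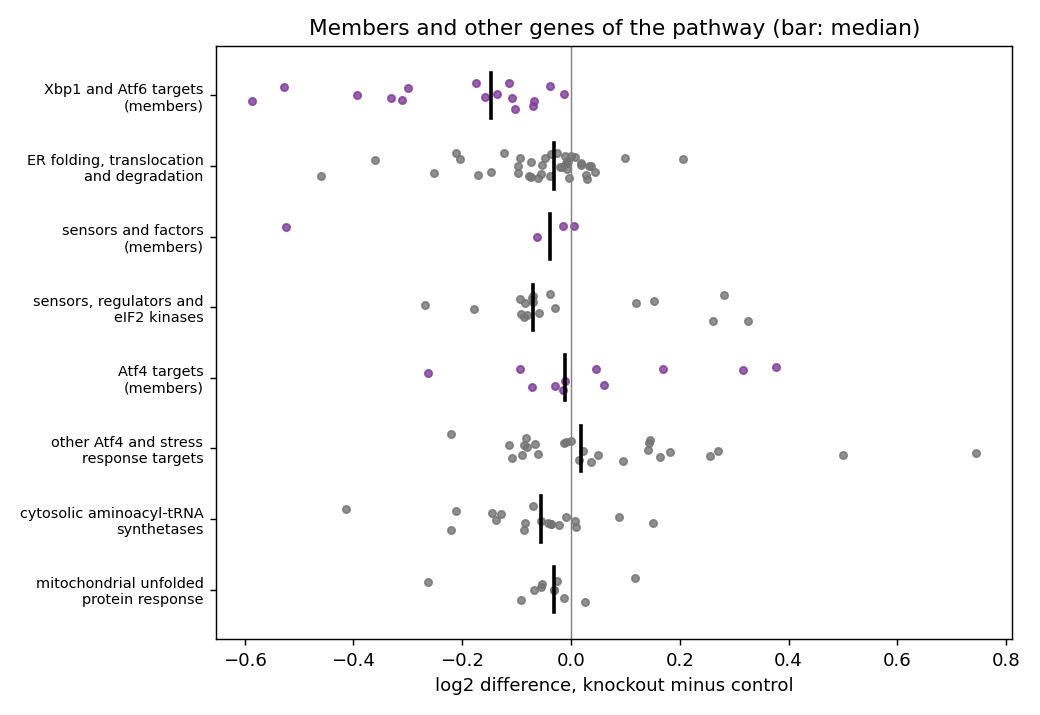
Log2 difference, knockout minus control, of every tested gene in the member lists (purple) and in the other lists of the pathway (grey), with a black bar at each list's median. The median is −0.15 for the Xbp1 and Atf6 targets and lies between −0.07 and 0.02 for the other 7 lists.

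Markers of tubular injury and of immune cells were read beside the members, and none passed the test. Of 6 injury markers 5 were above 0, and their median relative to controls was 0.21, 1.12 and 0.98 in knockouts 1, 2 and 3, against −0.09, −0.07 and −0.03 in controls. Havcr1, which encodes Kim-1, was at −1.90, 0.59 and 0.23 in knockouts, against −3.78, −4.17 and −4.27 in controls, a difference of 3.71 ± 0.65 (adjusted p = 0.138). Knockout 1, with the lowest Xbp1 and Atf6 targets, had the lowest Havcr1 and the highest Nampt of the knockouts. It was also the only knockout in the slide row of the controls, and how these relate was not tested. All 5 macrophage markers were above 0, with list medians of 0.27, 0.42 and 0.29 in knockouts and 0.21, −0.03 and −0.19 in controls. Plasma and B cells, whose secretory load depends on Xbp1, had 4 of 8 markers tested, with list medians of 0.47, 0.13 and 0.27 in knockouts and 0.16, 0.003 and −0.05 in controls. The B cell marker Cd79a and the plasma cell receptor Tnfrsf17 were not well above background on all arrays of either group. Of those tested, Mzb1 differed by 0.64, Jchain by 0.87, Cd79b by −0.01 and Derl3, which also stands in the ER folding list, by −0.46. The neutrophil genes S100a8 and S100a9 differed in the other direction, by −2.39 and −2.34. The part of these cells and of injury in the values of the members was not tested.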

How the data were processed

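Whole-kidney total RNA carried Cy3 and the arrays were of the SurePrint G3 Mouse GE 8x60K design, per the labels. Spot intensity was extracted by the authors using Agilent Feature Extraction 10.7.1.1, per the submitters' processing notes. Per the file headers, background subtraction and detrending within an array precede the processed intensity, with no scaling between arrays. The deposited flags (0 or 1) for outlier spots and for spots well above background are other values used. The authors' deposited table holds a linear ratio, equal within 1% to the processed signal over a constant of each array for 100% of the 13933 to 13936 probes compared per array.

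From these, outlier spots (92 to 151 per array) were dropped, spots averaged per probe, and log2 taken minus the 75th percentile of each array. The percentile was taken over 55681 probes, since most are detected. Of these, 28026 were named by accession through the RefSeq table of GRCm38.p6, used also for chromosomes. A probe was kept where every array of the knockouts, or every array of the controls, showed it well above background (32948 probes), and the brightest probe per gene was used (15309 genes). The test was limma 3.58.1 (lmFit, eBayes) in R 4.3.3 on the group alone, with p-values adjusted by Benjamini-Hochberg over all genes. Python 3.11.15, pandas 2.3.3 and matplotlib 3.10.9 did the rest. The fit was tested on simulated data. For 1 gene, an exact permutation test (two-sided) over 3 animals a group gives at best p = 0.1. The number of arrays limits the precision.

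Members, lists and tests were chosen with earlier results of these data known. Genes named are Nampt, every member, and of each other pathway list the 3 of smallest p and any that pass. Hars was named because it passed with slide row as a block. Havcr1, Slc34a1, Lrp2, S100a8, S100a9, Kars and the plasma cell markers were named after their values were seen, and so were Hspe1's array values. Marker lists also held straight tubule, loop, distal, collecting duct, podocyte, endothelium, fibroblast, T cell, neutrophil, adipocyte and erythroid genes, given in the closing section. Alternatives were quantile and median scaling, normexp (offset 50) with quantile normalisation, run on the median signal column of the files, the authors' ratios, other detection filters, mean of probes, probes as units, array weights, trended and robust variance, replicate and slide row blocks, other memberships and leaving out each array.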

Additional observations from a re-analysis of the deposited data

How the results depend on the processing

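The median of the Atf4 targets, −0.011, moved by less than the spread between animals under every alternative run, but its sign changed under several. It ran from −0.097 within the first slide row or with slide row blocked to 0.061 without the serine and folate genes. The median of the Xbp1 and Atf6 targets, −0.15, stayed below 0 under all. It moved beyond the spread between animals to −0.355 within the first slide row or with that row blocked. The difference of these medians, −0.135, was −0.258 within that row and with that block and −0.259 with means in place of medians. Leaving out each array gave −0.1997 to −0.0756 for the Xbp1 and Atf6 targets and −0.178 to −0.0741 for the difference. Leaving out genes of chromosome 12 was chosen after seeing the data, and both medians stayed within that spread. Members called were 0, against 1 (Xbp1) with array weights and with trended and robust variance and 8 at an unadjusted p of 0.05. Genes called over all genes were 26, against 116 with array weights, 77 with no filter, 57 with trended and robust variance, 16 with slide row as a block, 11 with quantile normalisation, 6 within the first row, 1962 at an unadjusted p and 0 to 57 without 1 array (0 without control 2 or 3, where 1436 and 1550 had an unadjusted p under 0.05, 1 without knockout 2 or 3, 34 without control 1 and 57 without knockout 1). The cause of these shifts was not tested.

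Values near 0, and that of Ddit3 (0.17), changed sign. With array weights they were 0.031 (Pdia6), 0.012 (Canx), 0.098 (Herpud1), −0.0067 (Atf6), −0.0024 (Chac1), 0.012 (Shmt2) and 0.0048 (Vldlr). Within the first slide row, and equally with slide row as a block, they were −0.0093 (Atf6), 0.067 (Ern1), −0.084 (Ddit3), −0.276 (Chac1) and 0.018 (Psat1). Under quantile normalisation they were 0.0049 (Herpud1), −0.0029 (Atf6), 0.0031 (Shmt2), −0.029 (Mthfd2) and 0.011 (Vldlr). With normexp added they were 0.0047 (Herpud1), −0.048 (Chac1), 0.021 (Psat1), −0.023 (Mthfd2) and 0.031 (Vldlr). Leaving out each array gave −0.15 to 0.040 (Pdia6), −0.12 to 0.17 (Herpud1), −0.0037 to 0.022 (Atf6), −0.057 to 0.012 (Ern1), −0.11 to 0.0016 (Atf4), −0.10 to 0.24 (Chac1), −0.16 to 0.092 (Psat1), −0.082 to 0.054 (Shmt2), −0.028 to 0.17 (Mthfd2) and −0.049 to 0.031 (Vldlr). The other 19 of 31 members kept their sign under all 18 alternatives, as did Nampt and the 16 other pathway genes named, Kars not counted.

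The labels do not say whether replicate numbers pair the animals. Deviations of equal numbers correlated at 0.10, −0.10 and −0.03, which cannot exclude pairing with 3 arrays a group. With the replicate block 0 genes passed limma (1636 at an unadjusted p of 0.05), against 26 without it, and the medians were the same. Of the 15309 genes, those near the detection limit are measured least well. That limit was 18.5 to 20.9 units on the controls and knockout 1, and 29.6 and 32.2 units on knockouts 2 and 3.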

Other observations

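The other marker lists are given by their median log2 difference, knockout minus control. The median was 0.03 for straight proximal tubule (3 genes), 0.01 for loop (2 genes), −0.14 for distal tubule (2 genes) and −0.11 for collecting duct (4 genes). It was 0.00 for podocytes, −0.01 for endothelium and 0.15 for fibroblasts (3 genes each). It was 0.50 for T cells (3 genes), −2.37 for neutrophils (2 genes), −1.17 for adipocytes (4 genes) and −0.72 for erythroid cells (3 genes). The adipocyte median relative to controls was −1.51, −2.62 and 0.57 in knockouts 1, 2 and 3, against 0.52, −0.63 and 0.12 in controls, so knockout 3 was above every control. The erythroid median was −0.02, −0.95 and −1.08 in knockouts, against 0.20, −0.01 and −0.18 in controls. No marker of these lists passed the test.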
